A study of Drosophila melanogaster with 6 samples.

Results

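Dopamine, serotonin and octopamine are monoamine transmitters, and 8 fly genes that make or move them are described here in the heads of Prp31 mutant and control flies. The genes were chosen by name for their function, and they are 8 of the 11836 genes in the expression table. They are ple, Ddc, Trh, Tdc2 and Tbh, which encode enzymes of amine synthesis, and Vmat, DAT and SerT, which encode amine transporters. Symbols were matched with their capitals, since Dat and trh are other genes.

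The study compared flies homozygous for the Prp31 mutation P18 with control flies whose genotype is given as white, named after an eye colour gene. Prp31 encodes a protein of the spliceosome, where it belongs to the U4/U6.U5 tri-snRNP, and the study set out to model a hereditary retinal degeneration. Each group had 3 libraries, each from 50 pooled heads of flies aged 2 days that were raised at 25 °C, with both sexes in the series. The labels do not give the proportion of the sexes in a library, do not say whether replicates came from separate cultures, and do not say whether the mutants also carry a white mutation. The p-values therefore measure only the spread between these libraries, which may be technical.

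Dopamine is made from tyrosine in a pair of steps. Tyrosine hydroxylase, encoded by ple, makes DOPA, and the decarboxylase encoded by Ddc turns DOPA into dopamine. Serotonin is made from tryptophan by the hydroxylase encoded by Trh and then by the same Ddc enzyme. Octopamine, the insect counterpart of noradrenaline, is made from tyrosine by the decarboxylase encoded by Tdc2 and then by the hydroxylase encoded by Tbh. The vesicular transporter encoded by Vmat loads all of these amines into vesicles, and the membrane transporters encoded by DAT and SerT take released dopamine and serotonin back into the cell. In flies dopamine is also a precursor of cuticle pigment and of the cross-links that harden cuticle, so ple and Ddc act in epidermis as well as in neurons.

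Levels are given as FPKM, read fragments scaled by gene length and by library total, and the read number behind each value is not known. The targeted gene, Prp31, stood at 13.5, 14.2 and 13.6 FPKM in mutant heads and at 13.8, 14.0 and 14.0 FPKM in control heads. What the mutation alters in the transcript is not stated, so this level does not check the labels. Column totals ran from 348791 to 402452 FPKM. Control replicate 3 was unlike the other controls: the Pearson correlation of its log2 values was 0.980 with control replicate 1 and 0.979 with control replicate 2, against 0.996 between those 2 libraries, across 8465 genes that are not independent replicates. Summed FPKM of the yolk protein genes Yp1, Yp2 and Yp3, made in female fat body, was 17149 to 45658 in mutant and 3582 to 19399 in control libraries, with the highest control value in replicate 3. Differences were tested with limma on log2(FPKM + 1) over the 8465 genes whose mean reached 1 FPKM, with Benjamini-Hochberg adjustment. Of these genes 11.3% passed an adjusted p under 0.05, 3.53% as higher and 7.81% as lower in the mutants, or 299 and 661 genes. The share of all genes at an unadjusted p under 0.05 was not counted and is at least 11.3%. Counts at that cut-off, given below for gene lists, therefore have no background share beside them. At an adjusted p under 0.05 (limma), 360 genes were higher and 452 lower with median-ratio scaling, and 384 and 467 with quantile normalization.

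Transcripts of 2 of the 3 transporter genes fell in mutant heads, and 0 of the 4 tested synthesis enzyme genes passed limma, adjusted or at an unadjusted p under 0.05. SerT and Vmat fell, by 0.46 and 0.51 on the log2 scale, and DAT had a log2 fold change of -0.53 that did not pass the test. Of the 8 genes 7 passed the filter on low values, and 2 of these 7 were called lower and 0 higher, beside 7.81% and 3.53% of all genes tested. All 7 had a log2 fold change below 0, also under both other scalings, as had 64.1% of all genes tested. Their median was -0.24, beside -0.066 for all genes tested. The mutant libraries lay below every control library in 3 of 3 transporter genes and in 0 of 5 enzyme genes, and in 21.8% of all genes tested. The gene lists grouped the 8 genes by amine. The split into transporters and enzymes was not among them and counts as chosen with the values in view. Whether transporters and enzymes differ from each other was not tested.

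**Figure D1:**
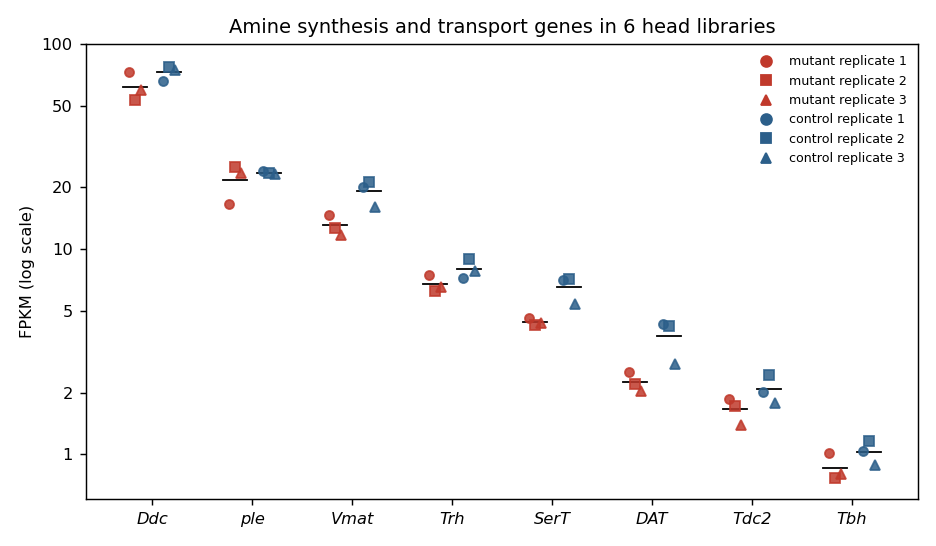
FPKM (log axis) of the 8 amine genes in each of the 6 head libraries, with mutant libraries in red, controls in blue, replicates by symbol and group means as black lines. Mutant points lie below all control points for Vmat, SerT and DAT, and the groups overlap for the other 5 genes.

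The serotonin transporter gene SerT (FBgn0010414, 2R, 24404595 to 24411074, minus strand, build BDGP6) had 4.63, 4.27 and 4.37 FPKM in mutant replicates 1, 2 and 3 and 7.04, 7.17 and 5.38 FPKM in control replicates 1, 2 and 3. The groups did not overlap, and control replicate 3 was the control nearest to the mutants. The mean was 4.42 ± 0.185 FPKM in mutants and 6.53 ± 0.999 FPKM in controls (SD, n = 3 each), a level 67.8% of the control. On the log2(FPKM + 1) scale of the fit, which understates changes of low transcripts, the log2 fold change was -0.46 (SE 0.11, adjusted p = 0.0336 by limma).

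The vesicular transporter gene Vmat (FBgn0260964, 2R, 13513132 to 13534251, minus strand) stood at 14.7, 12.7 and 11.8 FPKM in mutant heads and at 20.02, 21.3 and 16.0 FPKM in control heads. Again all mutant values were below all control values, with control replicate 3 the lowest control. The mean was 13.04 ± 1.47 FPKM against 19.1 ± 2.79 FPKM (SD, n = 3 each), or 68.3% of the control. On the log2(FPKM + 1) scale the log2 fold change was -0.51 (SE 0.12, adjusted p = 0.0390 by limma). Vmat shares 2129 exon bases with CG13330 on the opposite strand, and the use of strand in counting is not given in the sources used here. CG13330 itself was near the floor, with a mean of 0.216 FPKM in mutants and 0.251 FPKM in controls.

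The dopamine transporter gene DAT (FBgn0034136, 2R, 16558567 to 16565238, minus strand) stood at 2.53, 2.21 and 2.04 FPKM in mutant heads and at 4.32, 4.24 and 2.74 FPKM in control heads. The groups did not overlap, and control replicate 3 lay close above the highest mutant. The mean was 2.26 ± 0.248 FPKM in mutants and 3.77 ± 0.885 FPKM in controls (SD, n = 3 each), or 60.0% of the control. Its log2 fold change of -0.53 had a standard error of 0.15 and did not pass (limma adjusted p = 0.0590). Its 95% interval ran from -0.88 to -0.19. With a pseudocount of 0.1 in place of 1, the log2 fold change was -0.69 for DAT, -0.54 for SerT and -0.54 for Vmat.

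The calls of SerT and Vmat were close to the threshold. They were lost under median-ratio scaling, with adjusted p of 0.0590 and 0.0576 (limma), and under quantile normalization, with 0.0681 and 0.0579; these scalings centre the changes of all genes on 0. The log2 fold changes there were -0.40 and -0.40 for SerT and -0.44 and -0.45 for Vmat. They were also lost with no filter (0.0542 and 0.0575), where the log2 fold changes are the same by construction. When any 1 library except control replicate 3 was left out the calls were lost as well, with adjusted p of 0.0742 to 0.135 for SerT and 0.0556 to 0.139 for Vmat, while the log2 fold changes were -0.49 to -0.40 and -0.59 to -0.43. Without control replicate 3, SerT, Vmat and DAT all passed, with limma adjusted p of 0.00232, 0.00477 and 0.00248. When the mean log2 level of the yolk protein genes entered the model, which was tried only after the data had been seen, the log2 fold changes shrank to -0.25, -0.24 and -0.18 and 0 of these genes passed. Yolk protein levels were mostly higher in mutant than in control libraries. This model, also used below, therefore cannot separate genotype from what the yolk level follows.

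**Figure D2:**
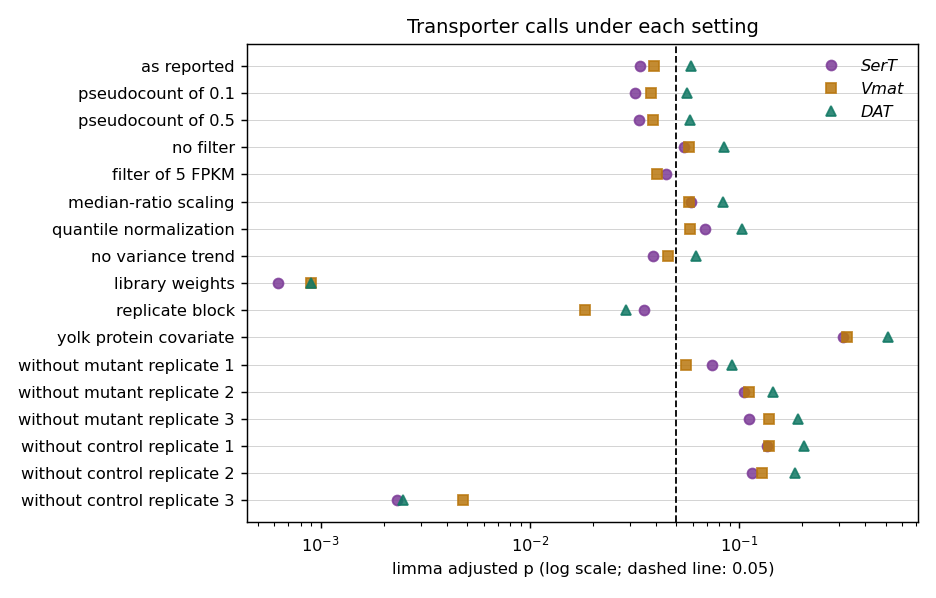
Adjusted p (limma, log axis) of SerT, Vmat and DAT as reported and under each of 16 other settings, with the 0.05 threshold dashed. All 3 genes lie left of the line with library weights, with the replicate number as a block and without control replicate 3, and all lie right of it without any 1 other library; DAT has no value at a filter of 5 FPKM.

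Among the enzymes of dopamine synthesis, ple (FBgn0005626, 3L, 6713356 to 6719525, minus strand) stood at 16.6, 25.1 and 23.5 FPKM in mutant heads and at 24.1, 23.5 and 23.2 FPKM in control heads. Mutant replicate 1 alone lay far below the controls, and mutant replicate 2 was the highest of all. The controls were tight, with a coefficient of variation of 1.84% against 20.7% in mutants. For ple the log2 fold change was -0.14, with a 95% interval of -0.47 to 0.20 (limma adjusted p = 0.571). Without mutant replicate 1 it was 0.038. The ple gene is on the same arm as Prp31 and 8.44 Mb from it.

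Ddc (FBgn0000422, 2L, 19116483 to 19120306, minus strand), which acts in both dopamine and serotonin synthesis, was the most abundant of the 8 transcripts. It stood at 72.7, 53.6 and 59.4 FPKM in mutant heads and at 66.1, 77.6 and 74.9 FPKM in control heads. Mutant replicate 1, lowest for ple, was the highest mutant for Ddc, and the groups overlapped. For Ddc the change was -0.24 on the log2 scale, with a 95% interval of -0.54 to 0.06 (limma adjusted p = 0.268).

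The tryptophan hydroxylase gene Trh (FBgn0035187, 3L, 1190384 to 1193173, minus strand) stood at 7.50, 6.29 and 6.55 FPKM in mutant heads and at 7.23, 8.996 and 7.84 FPKM in control heads. Only mutant replicate 1 reached into the control range. For Trh the log2 fold change was -0.21, with a 95% interval of -0.44 to 0.02 (limma adjusted p = 0.216). Ddc shares 88 exon bases with CG10561 and Trh shares 89 with CG13912, in each case on the opposite strand.

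The octopamine enzymes were the least abundant. Tdc2 (FBgn0050446, 2R, 6684745 to 6689974, minus strand) stood at 1.87, 1.71 and 1.39 FPKM in mutant heads and at 2.00, 2.44 and 1.77 FPKM in control heads. The groups overlapped through mutant replicate 1 and control replicate 3. The log2 fold change was -0.21, with a 95% interval of -0.48 to 0.06 (limma adjusted p = 0.285). Tbh (FBgn0010329, X, 7995697 to 8027394, plus strand) stood at 1.01, 0.764 and 0.798 FPKM in mutant heads and at 1.04, 1.16 and 0.884 FPKM in control heads. Its mean of 0.943 FPKM over all libraries was below the filter; with no filter its log2 fold change was -0.13, with a 95% interval of -0.32 to 0.07 (limma adjusted p = 0.383). The lower bounds of the intervals of the 5 enzyme genes lay between -0.54 for Ddc and -0.32 for Tbh, and the intervals of ple, Ddc and Tdc2 included the value of SerT, -0.46. Changes of such low transcripts are understated on the log2(FPKM + 1) scale.

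**Figure D3:**
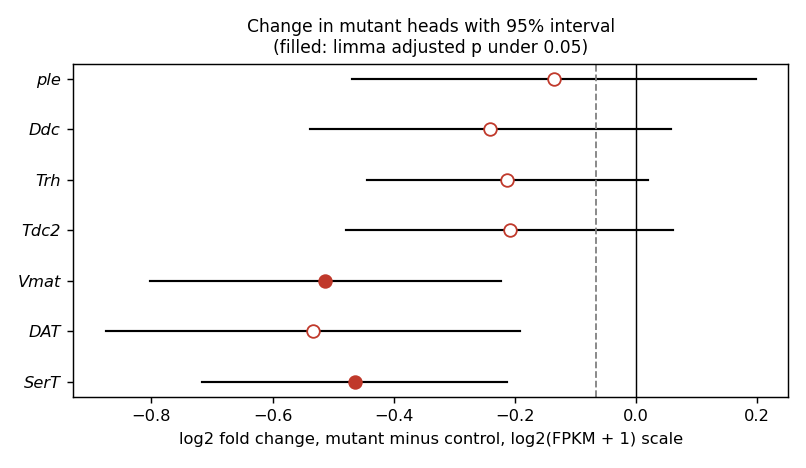
Log2 fold change (mutant minus control, log2(FPKM + 1) scale) of the 7 tested amine genes with 95% intervals from limma, filled where the adjusted p was under 0.05; the dashed line is the median of all tested genes, -0.066. The intervals of Vmat, DAT and SerT lie below 0, and those of ple, Ddc, Trh and Tdc2 include 0.

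The order of levels per length was the same in both groups: Ddc, ple, Vmat, Trh, SerT, DAT, Tdc2 and Tbh. No pair of neighbours in this order overlapped within either group. Controls ran from 72.9 ± 6.02 FPKM for Ddc to 1.03 ± 0.139 FPKM for Tbh, and mutants from 61.9 ± 9.82 FPKM to 0.858 ± 0.134 FPKM (SD, n = 3 each).

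Within each group most members were high and low in the same libraries. Mutant replicate 1 was the highest mutant for 7 of the 8 genes, ple being the exception, and for 45.2% of all genes tested. Control replicate 2 was the highest control for 6 of the 8, and for 29.1% of all genes tested. Control replicate 3 was the lowest control for 6 of the 8, and for 43.8% of all genes tested.

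Neuronal markers were high and low in the same libraries. The summed FPKM of elav, nSyb, brp, Syt1, Snap25 and cpx was 248, 202 and 196 in the mutant libraries and 259, 287 and 237 in the controls. Mutant replicate 1 was the highest mutant for 6 of these 6 markers and control replicate 2 the highest control for 5. Of the 5 tested markers 0 passed limma, 2 were lower at an unadjusted p under 0.05 (nSyb and cpx), and the median log2 fold change was -0.18. In whole heads, fewer cells of a type and less RNA per cell cannot be told apart.

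Levels were also expressed as a percentage of this neuronal sum in the same library, an alternative chosen after seeing the data. On this scale all mutant values were below all control values in 3 of 3 transporter genes and 0 of 5 enzyme genes. The same held in 5.46% of all genes tested. The 3 transporter genes were already separated in FPKM. Among genes so separated the share was not counted, so 5.46% is not a fitting background for them. SerT was at 1.87%, 2.12% and 2.23% of the sum in mutants and 2.72%, 2.498% and 2.27% in controls. Vmat was at 5.92%, 6.30% and 5.99% in mutants and 7.74%, 7.43% and 6.74% in controls. DAT was at 1.02%, 1.10% and 1.04% in mutants and 1.67%, 1.48% and 1.16% in controls. The gap between the highest mutant and control replicate 3 was narrow, most of all for SerT. On this scale the mutant mean was 82.9% of the control mean for SerT, 83.1% for Vmat and 73.3% for DAT. For the 5 enzyme genes it was between 97.3% for Tdc2 and 114% for ple, and the groups overlapped in all 5. The sum is weighted towards its most abundant markers, nSyb and cpx, with control means of 119 and 88.7 FPKM. Mutant means were 80.3% of the control for nSyb, 81.4% for cpx, 72.4% for Snap25, 88.1% for brp, 89.3% for Syt1 and 94.4% for elav. Levels relative to single markers were not computed.

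**Figure D4:**
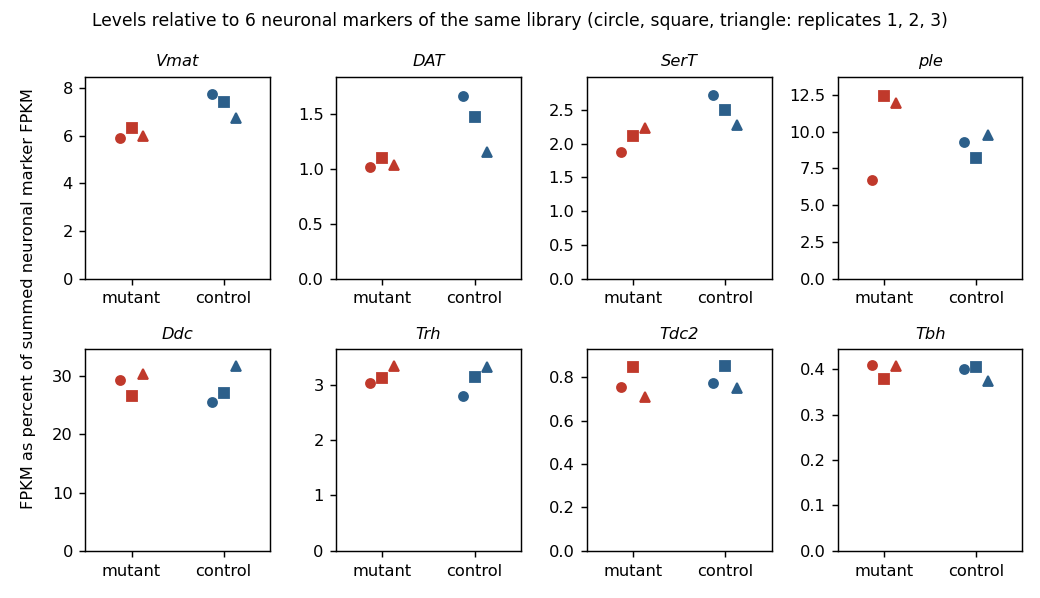
Level of each of the 8 amine genes as a percentage of the summed FPKM of 6 neuronal markers in the same library; each point is 1 library and every axis starts at 0. For Vmat, DAT and SerT all mutant points are below all control points, and for the 5 enzyme genes the groups overlap.

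Markers of other head cells were taken from lists. Counts of called markers, here and for neurons, stand beside 7.81% of all genes tested called lower and 3.53% called higher. Counts before adjustment have no such share beside them. Of 5 glial markers 1 fell, alrm (log2 fold change -0.69, limma adjusted p = 0.0179), and before adjustment 2 had a p under 0.05, both lower. The second of them, Eaat1, had a log2 fold change of -0.53 without overlap of the groups (limma adjusted p = 0.0578). The other glial markers, repo, moody and Gs2, were at 103%, 88.2% and 86.9% of the control mean, and their groups overlapped. The glial sum was 437 to 504 FPKM in mutants and 499 to 661 FPKM in controls. Vmat has a known glial site of expression in the fly, in addition to neurons. Of 8 tested markers of cuticle and epidermis 5 fell, among them the chitin synthase gene kkv (-1.31) and the chitin deacetylase genes serp (-1.16) and verm (-1.04), and 0 rose; 5 were lower and 1 higher before adjustment, at p under 0.05. The cuticle genes resilin and Cpr64Ad lay in the other direction, at 182% and 160% of the control mean; the resilin groups overlapped and it did not pass (log2 fold change 0.57, limma adjusted p = 0.0843) and Cpr64Ad, below the filter, had all mutant values above all control values. The sum of all 10 was 94.3 to 175 FPKM in mutants and 204 to 340 FPKM in controls. The summed photoreceptor markers were at 13310 to 17419 FPKM in mutants and 10972 to 12850 FPKM in controls, fat body markers at 592 to 1117 and 326 to 628 FPKM, and haemocyte markers at 210 to 225 and 210 to 237 FPKM. Most of the photoreceptor sum was ninaE, with means of 14190 FPKM in mutants and 10182 FPKM in controls, or 139% of the control. The other photoreceptor markers, ninaC, chp, trp and norpA, were at 99.2%, 104%, 110% and 113%, and their groups overlapped. Of the tested members of these lists, 0 of 5 photoreceptor markers passed limma, adjusted or at an unadjusted p under 0.05, 1 of 4 fat body markers rose (takeout, to), with 3 higher at an unadjusted p under 0.05, and of 7 haemocyte markers 1 rose (PPO1) and 1 fell (Hml), with 4 below and 2 above the controls at p under 0.05 before adjustment. Of the 3 yolk protein genes 0 passed limma, and 3 were higher at an unadjusted p under 0.05. No marker of these lists was at 0 in all libraries. The part of these markers in the changes of the amine genes was not tested.

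The surrounding pathway was described through 9 gene groups with 57 genes in the table. Of the 45 tested, 1 rose and 5 fell, beside 3.53% and 7.81% of all genes tested; without control replicate 3 the 6 calls became 20. The cofactor of ple and Trh, tetrahydrobiopterin, is made from GTP by a route that also gives the red eye pigments. Of its 5 genes 1 fell: Pu, which encodes the first enzyme, GTP cyclohydrolase. It stood at 63.6, 70.2 and 57.2 FPKM in mutant heads and at 162, 147 and 94.7 FPKM in control heads, which did not overlap (log2 fold change -1.04 with SE 0.20; adjusted p = 0.0165 by limma). Leaving out mutant replicate 1 or 3, or control replicate 1 or 2, ended the call (adjusted p 0.0539 to 0.0731), with log2 fold changes of -1.04 to -0.89. With the yolk protein genes in the model the log2 fold change was -0.52 and still passed (adjusted p = 0.0378 by limma). At an unadjusted p under 0.05 (limma), 2 of the 5 were lower (Pu and pr) and 1 higher (Sptr). The median of the 5 was 0.12.

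Of 17 receptors of dopamine, serotonin, octopamine and tyramine, 8 passed the filter and 0 passed limma, with 1 higher (CG18208) and 1 lower (Oamb) at an unadjusted p under 0.05; 6 of these 8 had a log2 fold change below 0. The most abundant were DopEcR, a receptor for dopamine and ecdysteroids, at 24.8 ± 3.80 FPKM in mutants and 26.5 ± 2.02 FPKM in controls, and 5-HT2A, a serotonin receptor, at 6.74 ± 0.409 and 7.65 ± 0.472 FPKM (SD, n = 3 each). The octopamine receptor gene Oamb had 1.81, 1.47 and 1.39 FPKM in mutants and 2.45, 2.42 and 1.99 FPKM in controls, without overlap (log2 fold change -0.36 with SE 0.10; adjusted p = 0.0671 by limma), and it passed without control replicate 3 (0.0228). Octbeta1R, another octopamine receptor gene, had a log2 fold change of -0.22, Dop1R1 one of 0.08 and 5-HT1B one of -0.15, and none of these passed limma. The medians were -0.01 for the dopamine, -0.15 for the serotonin and -0.17 for the octopamine and tyramine receptors.

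Enzymes that inactivate amines or use them in cuticle included 1 that rose and 2 that fell among 9 tested, with a median of -0.28. Before adjustment, 5 of the 9 were lower and 2 higher at a limma p under 0.05. AANATL2, an arylalkylamine N-acetyltransferase-like gene, stood at 3.29, 5.11 and 3.81 FPKM in mutant heads and at 22.3, 22.8 and 17.6 FPKM in control heads. The groups were far apart, with a log2 fold change of -2.12 (SE 0.15; adjusted p = 0.000189 by limma). It passed under every alternative in which it was tested. Dat, which encodes the dopamine N-acetyltransferase and not the transporter, had 8.09, 9.46 and 9.81 FPKM against 12.2, 11.7 and 12.5 FPKM (log2 fold change -0.38 with SE 0.09; adjusted p = 0.0312 by limma). The call of Dat was lost under both other scalings (0.104 and 0.0999) and when any 1 library except control replicate 3 was left out (0.0502 to 0.120), with log2 fold changes of -0.31 under each scaling and of -0.43 to -0.30 with a library left out. The gene that rose was yellow-f2, which encodes a dopachrome conversion enzyme of melanin synthesis, from 22.1 ± 3.38 to 40.2 ± 6.68 FPKM (SD, n = 3 each; log2 fold change 0.83 with SE 0.14; adjusted p = 0.0115 by limma).

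Of 4 related enzymes 1 fell. It was amd, the neighbour of Ddc at a gap of 2372 bases, which encodes a related enzyme that acts on DOPA in cuticle. It stood at 4.42, 5.16 and 3.71 FPKM in mutant heads and at 9.76, 8.48 and 7.27 FPKM in control heads, without overlap (log2 fold change -0.81 with SE 0.13; adjusted p = 0.00906 by limma). With the yolk protein genes in the model the calls of amd, Dat and yellow-f2 were lost (adjusted p of 0.0648, 0.0775 and 0.0616), with log2 fold changes of -0.52 for amd, -0.46 for Dat and 0.50 for yellow-f2. Of the 4 related enzymes 1 was lower (amd) and 1 higher (Hn) at an unadjusted p under 0.05 (limma), and their median was -0.22. Of 3 other transporters and regulators 0 passed limma and 1 (prt) was lower at an unadjusted p under 0.05, with a median of -0.15; Catsup, a negative regulator of ple, had 29.4 ± 1.55 and 25.4 ± 3.26 FPKM and ine, a transporter gene, 12.3 ± 0.909 and 13.9 ± 2.35 FPKM in mutants and controls (SD, n = 3 each). Of 14 tested genes of G protein and cAMP signalling 0 passed limma, 4 were lower at an unadjusted p under 0.05 and 13 had a log2 fold change below 0, with a median of -0.19. The most abundant, Ggamma1 and Gbeta13F, had log2 fold changes of -0.27 and -0.12.

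Transporters of the white family carry pigment precursors, including tryptophan, the precursor of serotonin. Of the 2 tested 1 fell, st (log2 fold change -2.44, limma adjusted p = 2.27e-05), with 2.34, 2.28 and 3.01 FPKM in mutants and 20.3, 18.3 and 16.0 FPKM in controls, while bw had a log2 fold change of 0.06. The w gene, from which the controls are named and which was singled out after its values were seen, was below the filter. It stood at 0.284, 0.373 and 0.524 FPKM in mutant heads and at 0.023, 0.015 and 0.046 FPKM in the white controls.

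**Figure D5:**
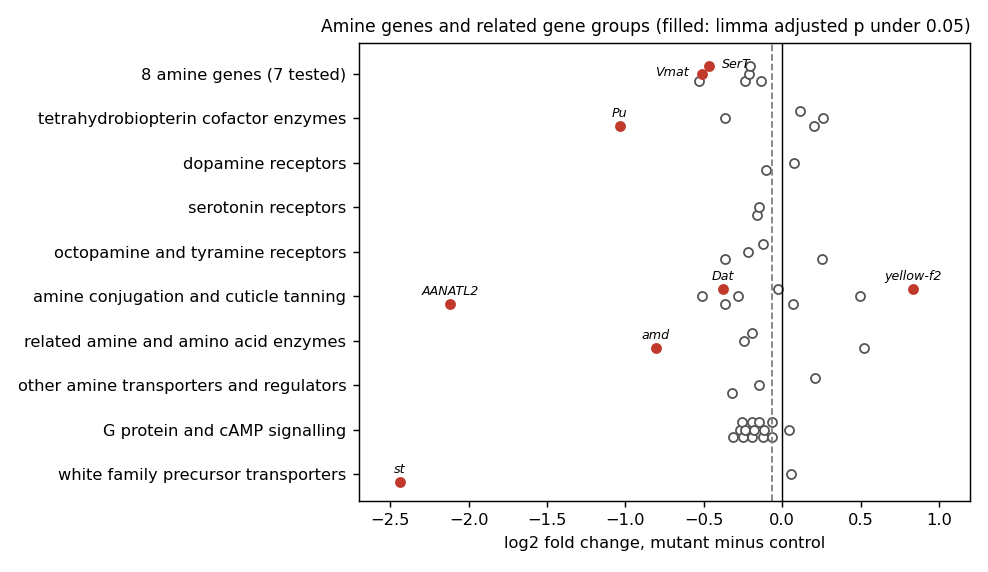
Log2 fold change (mutant minus control) of the tested amine genes and of 9 related gene groups, 1 point per gene, filled and named where limma's adjusted p was under 0.05; the dashed line is the median of all tested genes. Beside SerT and Vmat the filled points are Pu, AANATL2, Dat, amd and st, all lower, and yellow-f2, higher.

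The genes with the most similar profiles were found for the enzyme particular to each amine, as the smallest root mean square difference of centred log2 values over 6 libraries. For ple they were Ada1-2, CG31826 and Cys, at 0.065, 0.067 and 0.071, beside a spread of ple itself of 0.188. For Trh they were CG43689, CG30323 and CG7058, at 0.027, 0.033 and 0.039, beside a spread of 0.150. For Tbh they were CG30172, klg and Mgat2, at 0.013, 0.013 and 0.022, beside a spread of 0.104. None of these was an amine gene of the lists used here.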

How the data were processed

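The authors deposited 1 FPKM value for each gene in each library. Poly(A) RNA went into strand-specific libraries, amplified in 15 PCR cycles and read as single 75 base reads, per the labels' protocols. CASAVA 1.8 and STAR 2.5.2b are named with build BDGP6, per the submitters' processing notes. How FPKM was computed, which annotation served, whether strand was used and whether genes were filtered is not given in the sources used here. Because FPKM is relative to the library total, a few abundant transcripts can shift all other values.

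The comparison was 3 mutant against 3 control libraries with limma 3.58.1 in R 4.3.3, with a variance trend, a pseudocount of 1 and a filter of 1 FPKM, a threshold of 0.05 and adjustment over 8465 genes. The fit was tested on simulated data with normal noise, drawn separately for each gene and library, and with 200 changed genes per run. It recovered 54.4% of changes of 0.5 on the log2 scale, 86% of changes of 1 and 97.2% of changes of 2. There were 50 false calls over 5 runs. The simulation held no library that deviated across many genes, as control replicate 3 did, so these rates may not hold for the real libraries. Lists were described by counts and medians, without a set test. Of 61 symbols in 9 pathway lists 57 were in the table, and both symbols of a male marker list were unmatched and not used here. Named genes were the 8 members, up to 4 called genes per list by size or else the 2 most abundant, and the 3 nearest profiles of ple, Trh and Tbh. Prp31 was added. The w and bw genes, CG13330 and single marker genes were picked outside this rule, with their values in view. The members and lists were chosen with earlier results of these data known. Positions are from the Ensembl annotation of BDGP6. No sequence was analysed here. Replicate numbers were not used as pairs.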

Additional observations from a re-analysis of the deposited data

How the results depend on the processing

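The number of members past the threshold, 2 as reported, was 0 with no filter, median-ratio scaling, quantile normalization and the yolk protein covariate, and 0 to 3 with each library left out in turn. Over all genes, 960 passed as reported, 629 with a filter of 5 FPKM, where fewer genes were tested, 3298 with library weights, 491 with the yolk protein covariate and 406 to 2208 with each library left out, highest without control replicate 3. The 6 called genes of the pathway lists became 29 with library weights and 4 to 20 with each library left out. The causes of these differences were not tested. With the replicate number as a block 1142 genes and 3 members passed (limma), DAT being added with an adjusted p of 0.0286. Same-numbered libraries had correlations of -0.0113, 0.21 and 0.318 between their deviations from the group means. Libraries of unlike number had correlations of -0.31 to 0.31. These values do not decide whether the numbers pair the samples, and the reported fit did not use them as pairs. Among single genes 9 of 378 values reversed, none of them called. Prp31 had 0.052 with median-ratio scaling, 0.035 with quantile normalization and 0.0067 with library weights. With the yolk protein covariate DopEcR had 0.073, Catsup -0.0026 and ine 0.13. With each library left out ple ran from -0.24 to 0.038 and Dop1R1 from -0.028 to 0.18. Exact read numbers are not known, which limits what can be said of Tbh, Tdc2 and the receptors near or below 1 FPKM.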
